A study of Mus musculus with 6 samples.

Results

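The genes described here are 42 genes of the amino acid response and of protein synthesis: 20 cytosolic aminoacyl-tRNA synthetases, 6 enzymes of amino acid synthesis, 4 amino acid transporters and 12 stress factors. They were named as genes of these pathways, with earlier results of these data known. Their probes were found by matching each probe's accession to a gene symbol. That gave 63 probes of 56605 on the array. All 42 genes were well above background on all 6 arrays, among 21479 genes and unnamed transcripts ("units") that were tested.

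The cells were TM4, a mouse testicular somatic line of male origin that is used as a Sertoli cell model. They were kept for 24 h with 10 µM 4-nitrophenol (PNP; 3 samples) or with 0 µM, without treatment (untreated; 3 samples). PNP is a phenol that is formed from some organophosphate insecticides and is present in diesel exhaust. Each sample was hybridised to 1 single-colour Agilent array, and with 3 arrays a group the precision is low. Nothing in the labels tells whether the 3 samples of a group were grown separately. A p-value therefore reflects only the scatter of these samples, part of which may be technical. Of 14 markers listed for Sertoli cells, 11 were well above background on all 6 arrays, while Amh, Fshr and Cldn11 were not on any. All 6 Leydig cell markers were below that limit on every array, and all 5 listed markers of peritubular myoid cells were above it on every array. Of the other lists, 3 of 5 macrophage markers (Cd68, Csf1r and Cd14), 1 of 7 germ cell markers (Sycp3) and 0 of 5 endothelial markers were above it on every array.

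ATF4 is a transcription factor whose translation rises when the initiation factor eIF2 is phosphorylated, as happens in amino acid shortage, endoplasmic reticulum stress, heme shortage or viral infection. It acts as a dimer with other basic leucine zipper proteins and raises transcripts for amino acid uptake, amino acid synthesis and the charging of transfer RNA. It also raises the factors CHOP (gene Ddit3), ATF3 and Trib3, which shape the later course of the response. Aminoacyl-tRNA synthetases join each amino acid to its transfer RNA, and the cytosolic enzymes serve translation in the cytosol.

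ATF4 dimers bind a composite element whose core reads TGATGCAA, or TTGCATCA on the opposite strand. Both strands of the 250 bases before each annotated start in RefSeq (GRCm38.p6) were searched for TGATGCAA. It was found in 0.791% of all 32851 such windows. Promoters were matched for 34 of the 42 members, with 37 windows, and 8 of these windows (21.6%) held it, each in a different gene. The members with no match were Cars, Hars, Lars, Nars, Rars, Vars, Wars and Slc7a5. The 8 stretches are shown because they match the core of the element that ATF4 dimers bind. Each is a match of letters and not a site shown to be bound. Each is written 5′ to 3′ in the direction of its gene, and capitals mark the motif. Asns is added for its TGATGAAA, a variant of the motif known as the nutrient-sensing element of that gene.
Atf3 (chr1:191183416-191183463, minus strand): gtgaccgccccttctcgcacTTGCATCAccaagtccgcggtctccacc
Chac1 (chr2:119351029-119351076, plus strand): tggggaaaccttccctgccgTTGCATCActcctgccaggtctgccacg
Slc7a11 (chr3:50443633-50443699, minus strand): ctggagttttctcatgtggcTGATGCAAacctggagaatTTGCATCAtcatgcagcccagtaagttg
Nupr1 (chr7:126625553-126625600, minus strand): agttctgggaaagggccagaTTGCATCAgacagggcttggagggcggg
Aars (chr8:111033710-111033757, plus strand): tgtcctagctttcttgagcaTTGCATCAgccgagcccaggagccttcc
Pycr1 (chr11:120643824-120643871, minus strand): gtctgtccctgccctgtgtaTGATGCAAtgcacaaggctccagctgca
Tars (chr15:11399659-11399693, minus strand): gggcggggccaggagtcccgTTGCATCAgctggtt
Vldlr (chr19:27216800-27216847, plus strand): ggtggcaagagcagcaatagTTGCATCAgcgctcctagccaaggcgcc
Asns (chr6:7693210-7693252, minus strand): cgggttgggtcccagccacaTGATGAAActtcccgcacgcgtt
Slc7a11 has 2 copies, which begin 66 and 47 bases before the start and point in opposite directions. The motif begins 15 bases before the start in Tars and 200 bases before it in Vldlr. A window without these letters says nothing about binding elsewhere.

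The comparison asked whether transcripts of this response differ between cells with and without PNP. Levels are given as log2 of the processed signal minus the 75th percentile of the same array, and the fold change as the PNP mean minus the untreated mean on that scale. Levels of different probes are not comparable with each other. In such bulk samples, less of a transcript per cell and fewer cells that hold it cannot be told apart. No member passed the test (limma, Benjamini-Hochberg over all units, adjusted p from 0.430 to 0.998), and 0% of all units did. At an unadjusted p under 0.05, 2 members, Slc7a5 and Sesn2, were lower with PNP, 4.76% of 42, against 3.07% of all units (limma). No member was higher at that level, against 6.86% of all units.

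The members' fold changes were small and mostly below 0. Of 42 log2 fold changes, 38 (90.5%) were below 0, against 55.2% of all units and 62.2% of the 13538 named genes. The median of the members was -0.16, against -0.042 over all units and -0.089 over named genes. By list the median was -0.18 for the cytosolic synthetases, -0.19 for amino acid synthesis, -0.33 for the transporters and -0.16 for the stress factors. In 26 members the difference was smaller than its standard error, and in 39 it was smaller than 2 standard errors. All 3 PNP arrays lay below all 3 untreated arrays in 11 members (26.2%), against 7.83% of all units and 8.77% of named genes. The opposite order was found in no member, against 7.60% of all units. The first slide held only untreated arrays and the last only PNP arrays, so group and slide cannot be told apart there. On the slide between them, with 1 array of each group, 35 members were below 0 and 7 above. Its PNP array lay in array position 2 and its untreated array in position 1. Group and array position therefore cannot be told apart in any value from that slide. The median there was -0.21 over the members and 0.048 over all units. Under the 5 other scalings 31 to 39 members were below 0, and the medians of all 4 lists stayed below 0. The 8 members whose sign changed under at least 1 scaling (Aars, Dars, Lars, Qars, Tars, Ddit3, Asns and Slc3a2) were all within 0.058 of 0. Centring each array on its own median moved the median of all units to -0.15 and that of the members to -0.27.

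**Figure D1:**
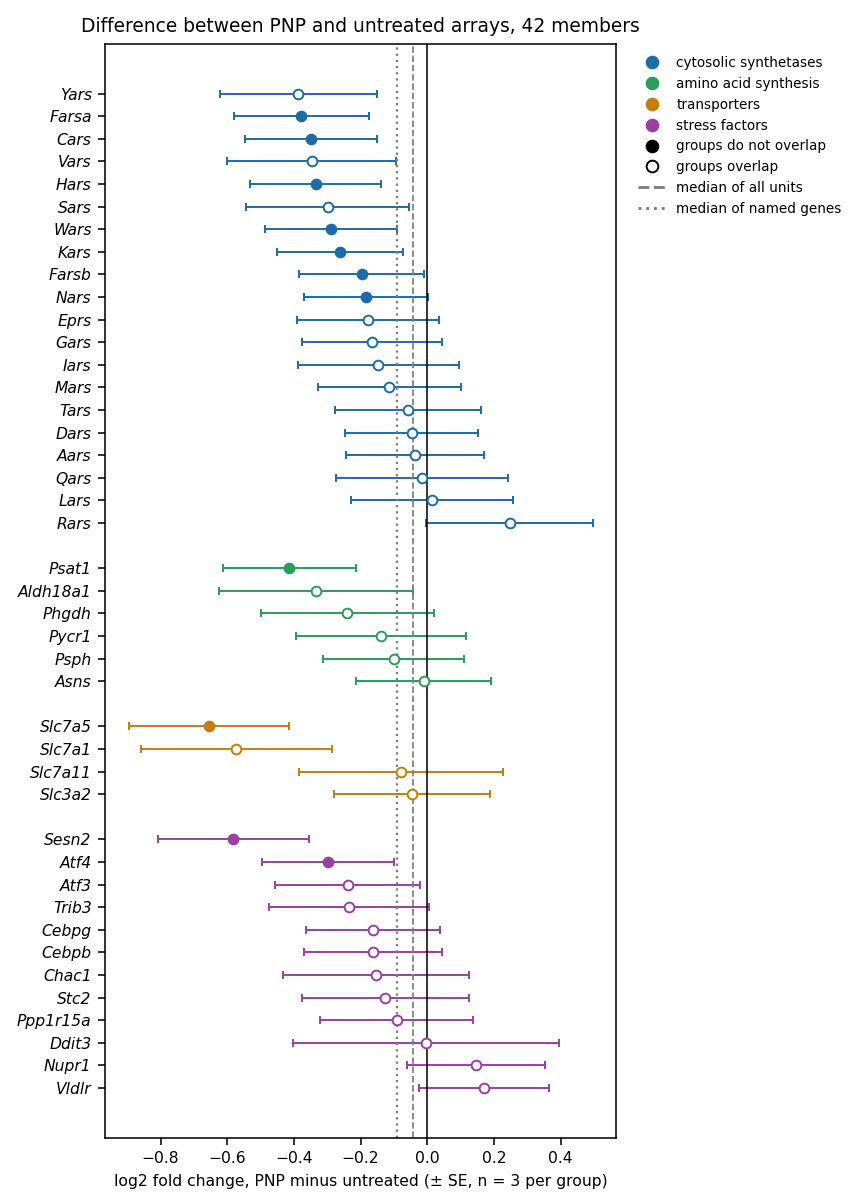
Log2 fold changes (PNP minus untreated) of the 42 members with their standard errors (n = 3 per group), by list. Filled marks are the 11 genes whose groups do not overlap, all below 0, and the grey lines mark the medians of all units (-0.042) and of named genes (-0.089).

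Among the cytosolic synthetases, 18 of 20 fold changes were below 0, from -0.39 (Yars) to 0.25 (Rars), and none passed (limma, adjusted p of 0.569 or more). The groups did not overlap for Cars, Farsa, Farsb, Hars, Kars, Nars and Wars. Farsa and Farsb encode the 2 kinds of subunit of the phenylalanyl enzyme. Farsa had 3.88, 4.02 and 4.20 on the PNP arrays, against 4.58, 4.39 and 4.26 on the untreated arrays. The highest PNP array and the lowest untreated array were close to each other, and the log2 fold change was -0.38 ± 0.20 (SE, n = 3 per group). Cars, the cysteinyl enzyme, had 4.98, 4.99 and 5.29 with PNP, against 5.48, 5.497 and 5.32 without. Its highest PNP array likewise lay just under its lowest untreated array, with a fold change of -0.35 ± 0.20 (SE). Hars, the histidyl enzyme, had 4.35, 4.36 and 4.41 on the PNP arrays, against 4.88, 4.73 and 4.52 on the untreated arrays. The PNP arrays agreed closely here, and the untreated arrays were spread over a wider range.

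Yars, the tyrosyl enzyme, had 2.09, 1.86 and 2.40 with PNP, against 2.49, 2.77 and 2.25 in untreated cells. PNP replicate 3 lay above untreated replicate 3, so the groups overlapped, and the fold change was -0.39 ± 0.24 (SE). Within each array position the Yars difference was alike, -0.51 in position 1 and -0.53 in position 2. On the slide that held both groups it was smaller, -0.16. There Hars also had -0.16, against -0.38 for Farsa and -0.35 for Cars. Wars, the tryptophanyl enzyme, had 2.16, 2.26 and 2.51 on the PNP arrays, against 2.68, 2.58 and 2.53 on the untreated arrays. Kars, the lysyl enzyme, had 4.91, 4.95 and 5.06 with PNP, against 5.25, 5.34 and 5.12 without. In both genes PNP replicate 3 came nearest to the untreated arrays.

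Vars (-0.35 ± 0.25) and Sars (-0.299 ± 0.25), for valine and serine, had differences about as large as those of Cars and Wars, with larger errors. In both genes untreated replicate 3 lay far below the other 2 untreated arrays, and the groups overlapped. Farsb (-0.1966) and Nars, the asparaginyl enzyme (-0.18), had separate groups at small differences. Eprs, which joins glutamate and proline to their transfer RNAs, Gars, Iars, Mars, Tars, Dars, Aars and Qars ran from -0.18 to -0.016. Lars had 0.014. Rars, the arginyl enzyme, had 3.59, 4.40 and 4.09 on the PNP arrays, against 3.78, 3.64 and 3.93 on the untreated arrays. PNP replicate 1 lay below every untreated array, so this difference of 0.25 ± 0.25 (SE) rested on the other 2 PNP arrays.

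All 6 genes of amino acid synthesis had fold changes below 0, from -0.41 to -0.010 (Asns, whose sign changed with the scaling), and none passed (limma, adjusted p of 0.534 or more). Psat1, the transaminase of serine synthesis, had 4.46, 4.60 and 4.83 with PNP, against 5.14, 4.96 and 5.03 in untreated cells. Its groups did not overlap, and the fold change was -0.41 ± 0.20 (SE). A second, dimmer Psat1 probe went the other way, with 3.76, 4.27 and 4.37 on the PNP arrays and 3.88, 3.77 and 3.97 on the untreated arrays. The direction of Psat1 is therefore not settled by these probes. Phgdh, which catalyses the first step of serine synthesis, had 6.03, 6.34 and 6.76 with PNP, against 6.68, 6.86 and 6.298 without. Its groups overlapped widely, at -0.24 ± 0.26 (SE), and Psph, which catalyses the last step, had -0.10 ± 0.21.

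Asns, the asparagine synthetase and a classical ATF4 target, showed no difference beyond its error. It had 5.18, 5.16 and 5.50 on the PNP arrays, against 5.23, 5.43 and 5.22 on the untreated arrays, and a fold change of -0.010 ± 0.20 (SE). Its second probe had -0.053. Aldh18a1, which starts proline synthesis from glutamate, had 2.10, 1.25 and 2.01 with PNP, against 2.02, 1.85 and 2.49 without. A low PNP replicate 2 set most of that difference of -0.33 ± 0.29 (SE), which was -1.003 within array position 1 and 0.20 within array position 2. Pycr1, which completes proline synthesis, had -0.14 ± 0.25.

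The 4 transporters included the member with the lowest fold change, Slc7a5, but differed among themselves. Slc7a5, the light chain of the transporter LAT1 for large neutral amino acids, had 0.41, 0.74 and 1.07 with PNP, against 1.66, 1.24 and 1.29 in untreated cells. The groups did not overlap. The fold change was -0.65 ± 0.24 (SE), a ratio of 0.635, and did not pass (limma, unadjusted p = 0.0250, adjusted p = 0.430). It was -0.73 within array position 1, -0.50 within array position 2 and -0.87 on the slide that held both groups. Weighting the arrays by their estimated quality brought it past the threshold (limma with array weights, adjusted p = 0.0406), in a fit where untreated replicate 1 had a weight of 9.11 and no other array more than 0.798. In that fit 2 of 42 members (4.76%) passed, against 6.36% of all units.

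Slc3a2, the heavy chain that LAT1 and the cystine transporter share, had overlapping groups and a fold change of -0.045 ± 0.23 (SE). Its second probe had -0.32 ± 0.23, with overlapping groups as well. Slc7a1, a carrier of cationic amino acids, had 1.64, 1.89 and 1.69 with PNP, against 2.49, 1.699 and 2.75 without. Untreated replicate 2 lay among the PNP arrays, so the difference of -0.57 ± 0.29 (SE) rested on the other 2 untreated arrays. It was -0.73 within array position 1 and -0.035 within array position 2. Slc7a11, the light chain of the cystine transporter, was dim, with -2.94, -3.23 and -2.28 with PNP, against -3.16, -2.68 and -2.38 without. The groups overlapped throughout, at a fold change of -0.078 ± 0.31 (SE). A second Slc7a11 probe was well above background on 1 of 3 PNP arrays and on no untreated array, and was left out of the tests.

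Of the 12 stress factors, 10 had fold changes below 0, and none passed (limma, adjusted p of 0.456 or more). Atf4 itself had 5.82, 5.62 and 5.82 on the PNP arrays, against 6.21, 5.88 and 6.06 on the untreated arrays. Its groups did not overlap, with a fold change of -0.298 ± 0.20 (SE, limma adjusted p = 0.638). The second Atf4 probe gave 3.97, 4.30 and 4.39 with PNP and 4.62, 4.49 and 4.88 without, again without overlap. ATF4 activity is set largely at translation, so the transcript level is not a measure of it. Sesn2, a stress-induced inhibitor of mTORC1 signalling, had 0.033, 0.28 and 0.61 with PNP, against 1.07, 0.69 and 0.91 in untreated cells. These groups were separate as well, with a fold change of -0.58 ± 0.23 (SE, limma unadjusted p = 0.0322, adjusted p = 0.456). Within array positions 1 and 2 it was -0.71 and -0.37, and on the slide that held both groups -0.88. With array weights, which rest mainly on untreated replicate 1, Sesn2 was the other of the 2 members that passed (limma, adjusted p = 0.0496), in the fit where 6.36% of all units did.

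The late factors of the response did not separate the groups. Ddit3, the gene of the proapoptotic factor CHOP, had 3.78, 2.54 and 3.73 on the PNP arrays, against 2.87, 3.97 and 3.22 on the untreated arrays. High and low values occurred in both groups, and the fold change was -0.0036 ± 0.40 (SE), the largest error among the members. Trib3, a pseudokinase induced by ATF4 and CHOP, had 4.76, 4.20 and 4.93 with PNP, against 4.83, 4.78 and 4.98 without. Chac1, an enzyme that degrades glutathione, had 3.90, 3.16 and 4.096 with PNP, against 3.63, 3.99 and 3.99 without. In both genes PNP replicate 2 was the lowest of the 6 arrays. Atf3, a stress-induced repressor, had 1.39, 1.76 and 1.97 on the PNP arrays, against 1.98, 1.87 and 1.99 on the untreated arrays, and its low PNP replicate 1 was the array farthest from the rest.

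The other stress factors stayed within their errors. Cebpb and Cebpg, leucine zipper proteins of the C/EBP family, both had -0.16. Stc2, a secreted glycoprotein, had -0.13 and Ppp1r15a, which directs the phosphatase that restores eIF2, -0.092. The only stress factors above 0 were Vldlr, a lipoprotein receptor, with 0.17 ± 0.1951 (SE), and Nupr1, a small chromatin-associated stress protein, with 0.15 ± 0.21. Both carry the TGATGCAA motif shown above. Over the 8 genes with that motif the fold changes ran from -0.24 (Atf3) to 0.17 (Vldlr), with a median of -0.068, and in none did the groups separate. The 26 matched members without it had a median of -0.17, with separate groups on the lower side in 6, against 7.83% of all units and 8.77% of named genes. These values describe the genes, and no test was made between the sets.

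**Figure D2:**
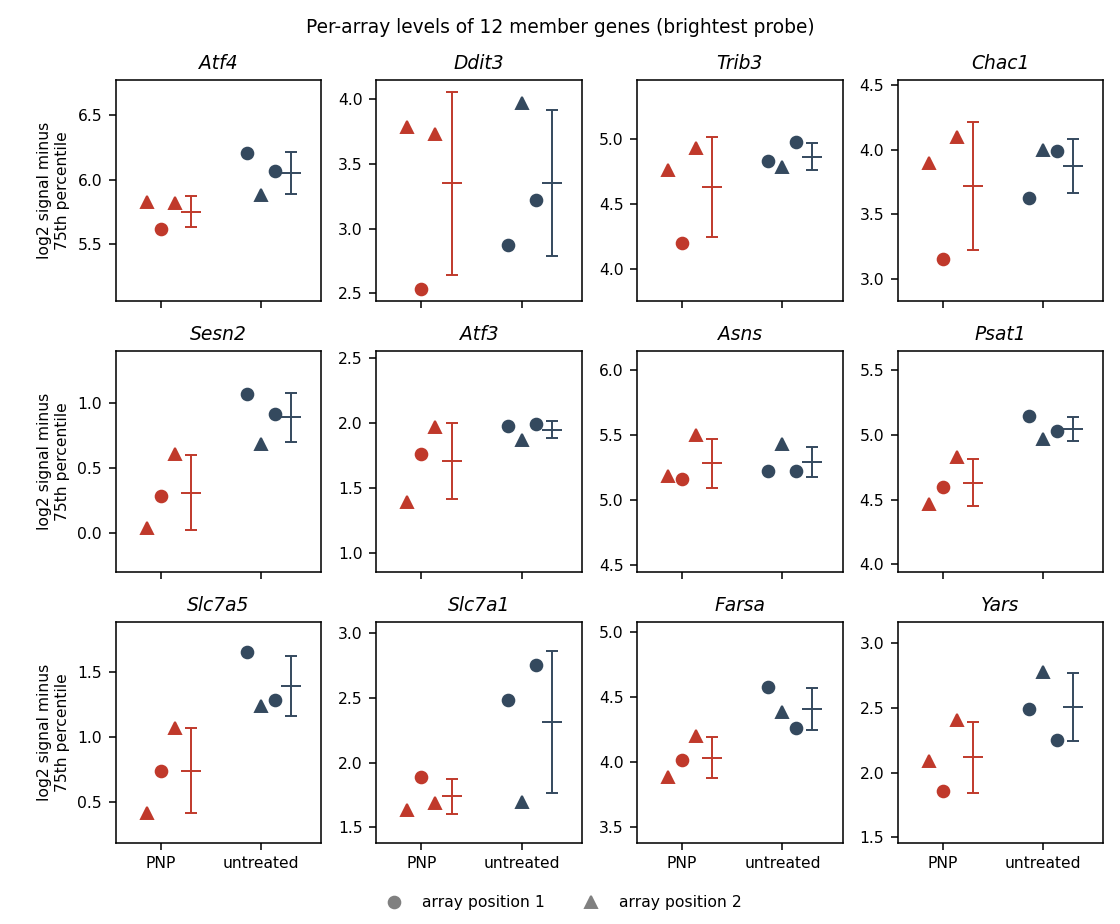
Levels of 12 members on each array (log2 signal minus the array's 75th percentile, PNP left, untreated right), with the mean and SD of 3 arrays beside the points. Circles are arrays in position 1 and triangles arrays in position 2: in Ddit3 all 3 triangles lie above all 3 circles, while in Slc7a5, Sesn2, Psat1, Atf4 and Farsa the groups do not overlap.

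Several tested probes were available for 15 members, and they allow the same gene to be read more than once. In 9 of these genes all tested probes had fold changes of the same sign, which was negative in each of the 9. The 3 Farsa probes ran from -0.41 to -0.34, the 3 Cars probes from -0.35 to -0.21, the 2 Yars probes from -0.41 to -0.39 and the 2 Atf4 probes from -0.44 to -0.298. The second probes of Yars, Atf4 and Lars had separate groups on the lower side, as did 8.24% of all tested probes. The probes went opposite ways in Psat1, Eprs, Rars, Lars, Cebpg and Vldlr. The brightest of 4 Eprs probes had 4.92, 5.0005 and 4.93 with PNP, against 5.32, 5.25 and 4.81 without. It overlapped between groups at -0.18, while 2 other Eprs probes had separate groups on the higher side (0.32 and 0.27), an order seen in 7.03% of all tested probes. The 3 Rars probes ran from -0.28 to 0.25. Where the probes of a gene disagree, its direction is not settled by these arrays.

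**Figure D3:**
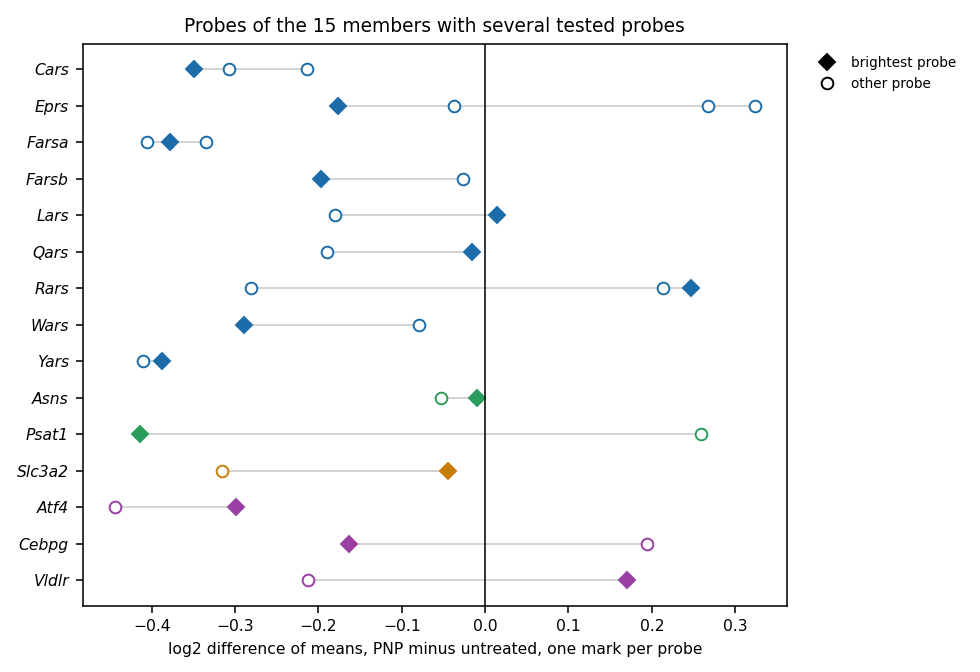
Log2 difference of means (PNP minus untreated) for each probe of the 15 members with several tested probes. Diamonds are the brightest probes, which stand for the gene in the test. The probes of Farsa, Cars, Yars and Atf4 lie close together below 0, and those of Psat1, Eprs and Rars fall on both sides.

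Arrays of the same group correlated at 0.972 to 0.986 over all units, and arrays of different groups at 0.968 to 0.983. Over the members, the median deviation from each gene's mean was -0.19, -0.17 and 0.097 on PNP arrays 1, 2 and 3, against 0.13, 0.13 and 0.043 on untreated arrays 1, 2 and 3. Over all units the same medians were -0.038, -0.031 and 0.032 with PNP, against 0.063, 0.075 and -0.091 without. PNP replicate 3 stood on the untreated side of the mean. It was the highest PNP array for 29 of the 42 members (69.0%) and for 40.4% of all units. Without it the groups were separate on the lower side in 19 members, against 14.2% of all units, and the median of the amino acid synthesis genes was -0.38. Without PNP replicate 2 that median was -0.071. Without untreated replicate 3 there were 16 members with separate groups, against 20.2% of all units. Leaving out untreated replicate 1, PNP replicate 1 or PNP replicate 2 left no member at an unadjusted p under 0.05 (limma). In those fits 5.14%, 10.5% and 9.27% of all units were at that level in either direction. On the lower side the shares were 0.992%, 3.16% and 3.86%.

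**Figure D4:**
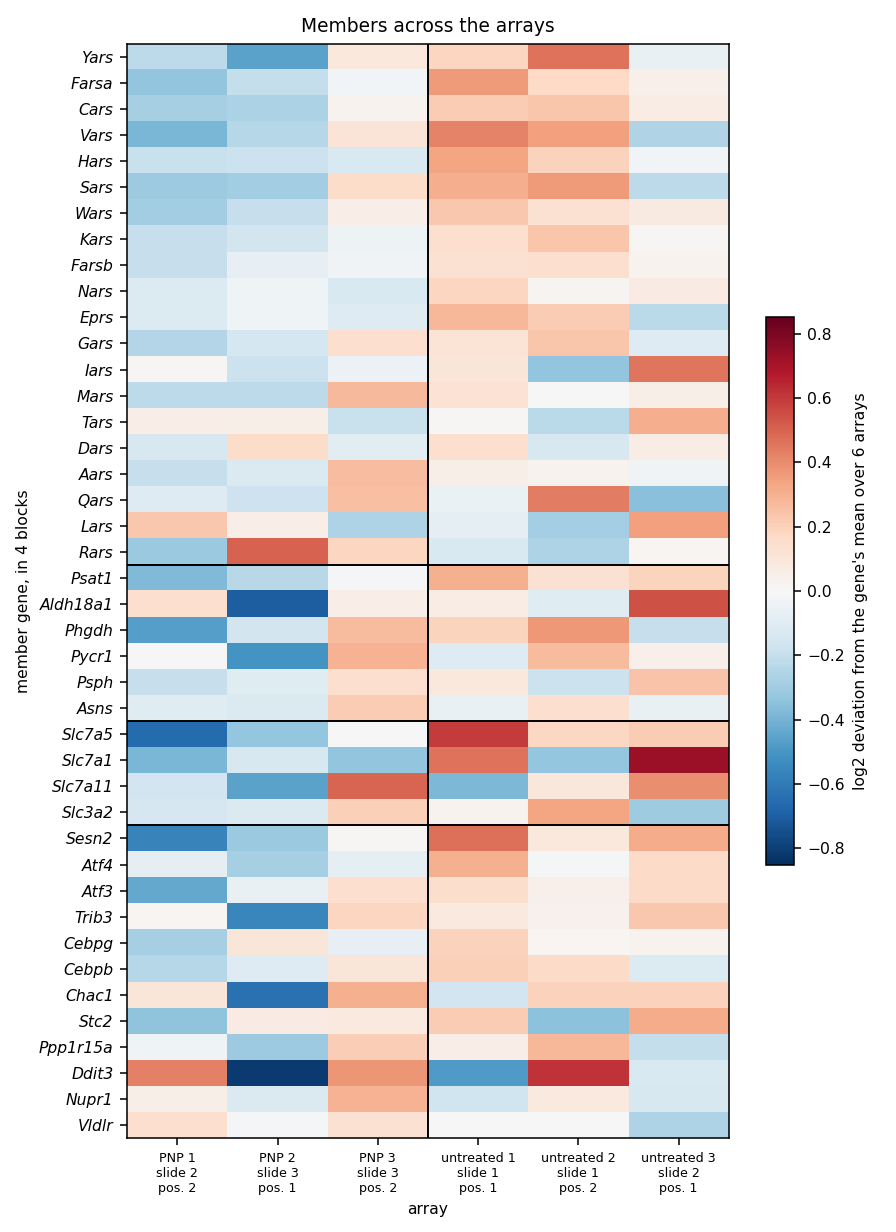
Deviation of each member (rows, in 4 blocks: cytosolic synthetases, amino acid synthesis, transporters, stress factors) from its own mean over the 6 arrays, on the log2 scale. PNP arrays are left of the line and untreated arrays right of it. The median of the synthetases was -0.20 and -0.17 on PNP arrays 1 and 2 and 0.0040 on PNP array 3, where single genes lie on both sides. It was 0.14, 0.15 and 0.0235 on untreated arrays 1, 2 and 3.

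Each slide carries its arrays at numbered positions, and both positions used here held both groups. Position 1 held PNP replicate 2 and untreated replicates 1 and 3, and position 2 held the other arrays. Ddit3 followed the position. In position 2 it had 3.78 and 3.73 with PNP and 3.97 in untreated cells, and in position 1 it had 2.54 with PNP and 2.87 and 3.22 in untreated cells. In the planned fit with treatment and position, whose position term was read only after the data were seen, Ddit3 was higher in position 2 by 1.07 ± 0.195 on the log2 scale (SE, limma, adjusted p = 0.0406), while 2.64% of all units passed. With normexp background correction the difference was 1.12 (limma, adjusted p = 0.00441). No other member passed between positions. At an unadjusted p under 0.05, Ddit3 and Pycr1 were higher in position 2, against 11.1% of all units, and Slc7a1 was lower, against 9.42%.

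With position as a block, the treatment difference of Ddit3 was -0.36 ± 0.195 (SE, limma unadjusted p = 0.105), against -0.0036 without it. Its differences within positions 1 and 2 were -0.51 and -0.21. On the slide that held both groups, with the PNP array in position 2, the Ddit3 difference was 0.56. For Trib3 and Chac1 the values were -0.71 and -0.65 within position 1, where PNP replicate 2 was the only treated array, and 0.064 and 0.0044 within position 2. In the same fit Slc7a5, Sesn2 and Yars had an unadjusted p under 0.05 on the lower side, against 5.33% of all units, and no member passed (limma). Within both positions 25 members were below 0 and 4 above 0, and 13 changed sign between them.

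**Figure D5:**
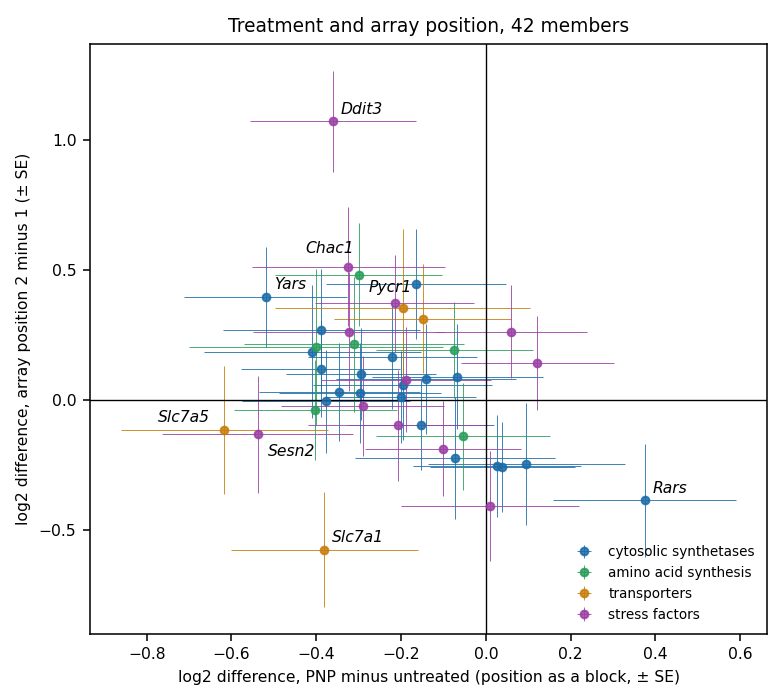
Treatment difference (horizontal, PNP minus untreated with position as a block) and position difference (vertical, position 2 minus position 1) of the 42 members on the log2 scale, with standard errors. Ddit3 stands apart at 1.07 on the vertical axis, and Slc7a5, Sesn2 and Yars lie farthest left.

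Other genes of the same pathways were read for comparison, from lists that were also chosen with earlier results of these data known. None of their members passed over all units (limma). The 17 mitochondrial synthetases, which charge transfer RNA for translation inside mitochondria, had a median log2 fold change of -0.21, with 14 below 0, against 62.2% of named genes, and none at an unadjusted p under 0.05. Iars2 had -0.396 ± 0.19 (SE), Sars2 -0.43 ± 0.22 and Cars2 -0.66 ± 0.35. The Cars2 value was -0.35 with position as a block and -1.25 on the slide that held both groups. The 17 eIF2 kinases, eIF2 and eIF2B subunits and cofactors had a median of -0.12. Among them Eif2b5, the catalytic subunit of the exchange factor eIF2B, had -0.37 ± 0.1956, Gcn1, the activator of the amino acid sensing kinase, -0.398 ± 0.21 (-0.19 on the slide that held both groups), and Eif2b1 -0.34 ± 0.21.

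The list of 24 further ATF4 targets, of which 23 were measured, had a median of -0.25, with 21 below 0, against 55.2% of all units and 62.2% of named genes. Shmt2, the mitochondrial enzyme that splits serine, had 4.57, 4.73 and 4.91 with PNP, against 5.36, 5.09 and 5.25 in untreated cells. Those groups did not overlap, with a fold change of -0.499 ± 0.20 (SE, limma unadjusted p = 0.0360, adjusted p = 0.471). Of the 23, only Shmt2 had separate groups on the lower side, against 7.83% of all units and 8.77% of named genes. Slc1a5, a glutamine carrier, had -0.56 ± 0.25 (limma, unadjusted p = 0.0495), with -0.27 within position 2 and -0.99 on the slide that held both groups, and Ddit4, an inhibitor of mTORC1, -0.53 ± 0.24. Of the 23, 2 were at an unadjusted p under 0.05 on the lower side, against 3.07% of all units, and none on the higher side, against 6.86%.

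The scaffold of the multisynthetase complex held the only 2-fold difference among the brightest tested probes of all these genes. A difference of 2-fold or more, in either direction, was found in 681 of all 21479 units. Aimp1, a scaffold subunit that is also secreted as a cytokine, had 4.25, 4.61 and 5.09 on the PNP arrays, against 3.50, 3.60 and 3.82 on the untreated arrays. All PNP arrays lay above all untreated arrays, an order found in 7.60% of all units. The difference was 1.008 ± 0.26 (SE, limma unadjusted p = 0.00371, adjusted p = 0.293). Only 1 probe read Aimp1, and its difference was 0.95 within position 1, 1.07 within position 2 and 0.42 on the slide that held both groups. The other scaffold subunits had -0.13 (Aimp2) and -0.39 (Eef1e1). Among dimmer probes, 1 of the 2 probes of Aldh1l2, a mitochondrial folate enzyme among the further ATF4 targets, also lay higher in PNP arrays without overlap, by 1.21 ± 0.33 (SE, limma over all probes, adjusted p = 0.347). That order was found in 7.03% of all tested probes. The brighter Aldh1l2 probe had 0.51 ± 0.51 with overlapping groups, and -1.02 on the slide that held both groups. The values of both probes were noticed after the data were seen. With array weights Aimp1 passed (limma, adjusted p = 0.0258), as did 6.36% of all units.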

How the data were processed

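RNA from 6 TM4 samples (3 with PNP, 3 untreated) was isolated with TRIzol and, after linear amplification, carried the dye Cy3, per the labels' protocols. The deposited intensity values are Agilent Feature Extraction output. The file headers give its version as 11.5.1.1 and the submitters' processing notes as 10.7. The processed signal has its background subtracted and is not normalized between arrays. In the authors' deposited log2 table the sorted values are nearly the same in every column, and each column follows its array's own log2 signal with a correlation of 0.998 or more. The method behind that table is not given in the sources used here.

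For this report, outlier spots were left out, log2 processed signals were averaged over the spots of a probe, and values were set relative to the 75th percentile of the array. Probes were kept when measured on every array and well above background on all 3 arrays of a group, which left 28208. The brightest probe stood for a gene. Symbols came from RefSeq accessions (GRCm38.p6), a build that differs from that of the array and so gave the probes names only. The promoter windows and their coordinates were taken from GRCm38.p6 as well. Of the 56605 probes 33767 were named in this way, and 22838 stayed unnamed. The 21479 units were 13538 named genes and 7941 other transcripts. The test was limma 3.58.1 under R 4.3.3 (lmFit and eBayes, both sides, with Benjamini-Hochberg adjustment across every unit), with the packages statmod 1.5.0 and data.table (1.17.8). The scripts were tested on simulated data.

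Members and lists were chosen with earlier results of these data known. Per-array values are given for a fixed panel of 8 genes, for the members of each list with the smallest p and for members whose probes differ by over 0.5, and from each further list the 3 genes with the smallest p are named. The first slide carried only untreated replicates (1 and 2) and the last only PNP replicates (2 and 3), while the slide between them carried PNP replicate 1 with untreated replicate 3. All scans shared 1 day. The alternatives were other background corrections, scalings, filters, probe summaries and variance models, array weights, blocks for slide, position and replicate number, the authors' values and leaving out each array.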

Additional observations from a re-analysis of the deposited data

How the results depend on the processing

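No member passed in the planned analysis or in any alternative except array weights, where Slc7a5 and Sesn2 did (2 of 42 members, 4.76%, against 1365 units, 6.36%). All units gave 0 calls in the planned analysis. There were 538 within array position 1 and 78 within array position 2, where the only array of a group is assumed to vary like the others. Blocking for position gave 93 calls when normexp was used, and 18 when the variance trend was robust, an alternative chosen after the data were seen. Leaving out each array gave 0 to 0 calls, for all units and for members. Members at an unadjusted p under 0.05 numbered 2 as planned, against 9.94% of all units in either direction. They numbered 11 with array weights (26.2%, against 30.3% of units), 5 with median centring (11.9%, against 12.3%) and 1 without a filter (2.38%, against 6.00%). Blocking for position gave 5 under normexp (11.9%, against 14% of units) and 4 under the robust trend (9.52%, against 15.9%). There was 1 within position 1 (against 10.2%) and 0 within position 2 (against 5.73%), 0 with slide as a fixed block (against 5.37%) and 0 with the replicate block (against 6.35%). Leaving out 1 array gave 0 to 3, against 5.14% to 12.4% of units. All these members were on the lower side.

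The medians of the 4 lists stayed below 0 in all 25 alternatives, but these are not 25 separate checks. Dropping or tightening the filter, the robust variance trend and the replicate block gave the planned medians unchanged. The fixed slide block and slide 2 alone gave the same medians, as did the position block with and without the robust trend. The synthetases' median moved from -0.18 to -0.28 with median centring and ran from -0.26 to -0.14 over the fits that leave out 1 array. For amino acid synthesis it was -0.37 within position 1 and -0.38 to -0.071 over those fits. For the transporters it was -0.59 within position 1 and -0.72 with slide as a fixed block, which rests on the 2 arrays of slide 2, and -0.45 to -0.25 with 1 array left out. The stress factors ran from -0.24 to -0.084 there. Over the 5 other scalings 34 members kept their sign, and the 8 that did not (Aars, Dars, Lars, Qars, Tars, Ddit3, Asns and Slc3a2) were within 0.058 of 0. The cause of these changes was not tested. The replicate block left every fold change as it was, which the design fixes, since each replicate number has 1 array of each group. Same-numbered arrays, whose deviations correlated at -0.409, -0.553 and -0.406, share only a number, so the replicate block is not a pairing. A second fit by slide as a random block gave the same counts as the planned analysis. Its estimated correlation within slides was only -0.0093, so that fit could hardly differ.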
